A study of Mus musculus with 2 samples.

Results

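The cells described here are the myeloid cells of the mouse ankle synovium that carried RNA of cell division genes and little granule RNA. They were chosen by their own counts of unique molecular identifiers (UMIs, each a captured RNA molecule): at least 3 UMIs of Top2a and Mki67 together, under 100 of S100a8, and under 20 of Elane, Mpo and Prtn3 together, in barcodes that held 500 or more RNA UMIs and 200 or more genes, with no more than 10% of UMIs from mitochondrial genes. In all, 153 cells met the rule, among 2847 filtered cells and 3189 barcodes, and they are called cycling cells below, by the rule. The library taken 7 days after treatment held 87 of them among 1210 filtered cells and 1277 barcodes, and the steady-state library held 66 among 1637 filtered cells and 1912 barcodes. Because Top2a and Mki67 chose the cells, the levels of those genes and of genes of the same program are given as a description only.

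The animals of both groups were bone marrow chimeras on the B6 background, made by giving CD45.1 marrow to CD45.2 hosts whose ankles had been shielded during irradiation, so that the joint kept host cells. The day 7 group had been given 200 µL of clodronate liposomes (clo-lip), which kill phagocytes that take them up, by retro-orbital injection 7 days earlier, and the steady-state group was untreated. Cells of the ankle synovium were sorted for CD45 and CD11b, and, per the labels, against Ly6G, SiglecF, CD64, MHCII, Ly6C and CD177. RNA and antibody tags were counted in the same cells (CITE-seq), with 1 library per group. The number of pooled animals is not given in the sources used here. With 1 library per group no test between the groups is possible, and treatment cannot be told apart from any other difference between the libraries. All intervals are exact 95% intervals that cover counting error only (Clopper-Pearson for shares, conditional Poisson for ratios).

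Dividing cells switch on gene sets in order: replication genes in S phase, and then genes of chromosome condensation, spindle assembly and division in G2 and M phase. Top2a untangles DNA, Mki67 coats mitotic chromosomes, Ccna2 is cyclin A, Birc5 (survivin) is part of the chromosomal passenger complex, and Stmn1 destabilizes microtubules. Circulating monocytes are made by dividing marrow precursors, whereas many tissue macrophages can maintain themselves by local division, so the lineage and the origin of a dividing cell in the joint are separate questions.

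The origin of a cell was read from a pair of antibody tags, shown here because every statement on host and donor rests on counting them. Capitals mark the 11 of 15 bases at which the tags differ.
CD45.1: cCTATGGaCtTGGAc
CD45.2: cACCGTCaTtCAACc
Surface proteins of the cycling monocytes and class II cells are read from the tags below, in capitals throughout because the whole tag identifies the antibody. Any pair among the 92 tags differed at 4 bases or more.
Ly6C: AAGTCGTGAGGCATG
CD43: TTGGAGGGTTGTGCT
I-A-I-E: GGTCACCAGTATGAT

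Many promoters of division genes hold short elements known from cell cycle control. A search of the 250 bases before the gene start, on both strands and with matches allowed to share bases, looked for CCAAT, which NF-Y binds, and TTTGAA, the core of the cell cycle genes homology region. CCAAT lay in 35 of 46 G2/M genes with a RefSeq promoter (76.1%) and in 19 of 29 S-phase genes (65.5%), against 34.5% of all 27025 promoters. TTTGAA lay in 17 of the 46 G2/M genes (37.0%) and 5 of the 29 S-phase genes (17.2%), against 16.3% of all promoters. The last 150 bases before the start of Cdk1, the mitotic kinase, and of Ube2c, which loads ubiquitin for the anaphase-promoting complex, hold both elements, whereas those of Ccnb2 and Cenpf hold CCAAT alone and that of Birc5 holds neither. They are shown because both genes had high ratios in the comparison of cycling with non-cycling C1q cells below. Capitals mark the matches on either strand, in RefSeq sequence of build GRCm38.p6.
Cdk1 (chr10:69352913-69353062, minus strand): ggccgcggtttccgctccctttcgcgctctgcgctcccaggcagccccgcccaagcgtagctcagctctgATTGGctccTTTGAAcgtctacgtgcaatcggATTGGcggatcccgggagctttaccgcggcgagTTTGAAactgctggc
Ube2c (chr2:164769779-164769928, plus strand): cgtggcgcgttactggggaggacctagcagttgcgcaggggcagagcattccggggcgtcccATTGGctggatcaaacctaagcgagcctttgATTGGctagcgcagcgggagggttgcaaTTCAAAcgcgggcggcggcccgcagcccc

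Depth and quality were as follows. Cycling cells held a median of 13789 RNA UMIs at day 7 and 17019 at steady state, above the medians of 7762.5 and 9295 in the non-cycling cells under the same granule limits. Median mitochondrial shares were 1.92% and 1.78% in the cycling cells of the libraries, against 2.19% and 1.92% in the non-cycling cells. No barcode was shared between the libraries. A doublet caller (Scrublet) marked 1 cycling cell at day 7 and none at steady state, and 2 steady-state cycling cells had over 20 counts of both CD45 tags. Because the rule is a count limit, deeper cells reach it more easily, so values after thinning every cell to 5000 UMIs are given below.

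The cycling share of cells without high granule RNA was higher at day 7. Among cells under both granule limits, 87 of 1057 were cycling at day 7 (8.23%, interval 6.64 to 10.0%), against 66 of 1631 at steady state (4.05%, 3.14 to 5.12%). Exactly 3 UMIs, the lowest count that qualified, were found in 16 cycling cells at day 7 and 12 at steady state, while 19 and 31 cells stopped at 2 UMIs. The highest counts reached 86 and 83 UMIs. At steady state the cycling cells nearest to the S100a8 limit had 93 UMIs inside it and 479 outside it. At day 7 they had 81 and 104 UMIs, and 16 cycling cells inside the limit had at least 20. The cycling cells on either side of the granule protease limit at day 7 had 19 and 21 UMIs. Neither limit therefore marked a clear break at day 7.

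Cells were then put in classes by raw UMIs, in a fixed order: at least 10 of the collagens Col1a1, Col1a2 and Col3a1 (stromal), at least 3 of the T and B cell genes Cd3d, Cd3e, Cd79a, Cd79b and Ms4a1 (lymphoid), at least 10 of C1qa, C1qb and C1qc (C1q, the complement subunits that tissue macrophages make), at least 3 of Ly6c2 (the Ly6C antigen of classical monocytes), at least 10 of H2-Aa, H2-Ab1 and H2-Eb1 (class II, which presents peptides to T cells), and none of these (no flag). Ly6c2 cells made up 83.9% of the cycling cells at day 7 (73 of 87) and 24.2% at steady state (16 of 66). C1q cells made up 6.90% at day 7 (6 cells) and 53.0% at steady state (35 cells). The class II class held no cycling cell at day 7 and 15.2% of those at steady state (10 cells). Since Ly6c2 comes before class II in the order, 3 cycling cells at day 7 and 2 at steady state that reached the class II limit count as Ly6c2 cells. Cells without a flag numbered 8 and 5, and no stromal or lymphoid cell met the rule in either library.

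Within a class the picture was different from the composition. Of Ly6c2 cells, 73 of 536 were cycling at day 7 (13.6%, 10.8 to 16.8%), against 16 of 190 at steady state (8.42%, 4.89 to 13.3%), and these intervals overlap. Of C1q cells, 6 of 148 met the rule at day 7 (4.05%), against 35 of 921 at steady state (3.80%), values that lie inside each other's intervals. Of class II cells, 0 of 42 met it at day 7, which allows a share of up to 7.14% by 3 counts of the total (8.41% by the exact interval). At steady state 10 of 178 met it (5.62%), so a lower share at day 7 was not detectable with so few cells. Of cells without a flag, 8 of 313 (2.56%) and 5 of 277 (1.81%) met it. The mix of classes among all non-cycling cells also differed, with Ly6c2 cells at 47.7% at day 7 and 11.1% at steady state.

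**Figure D1:**
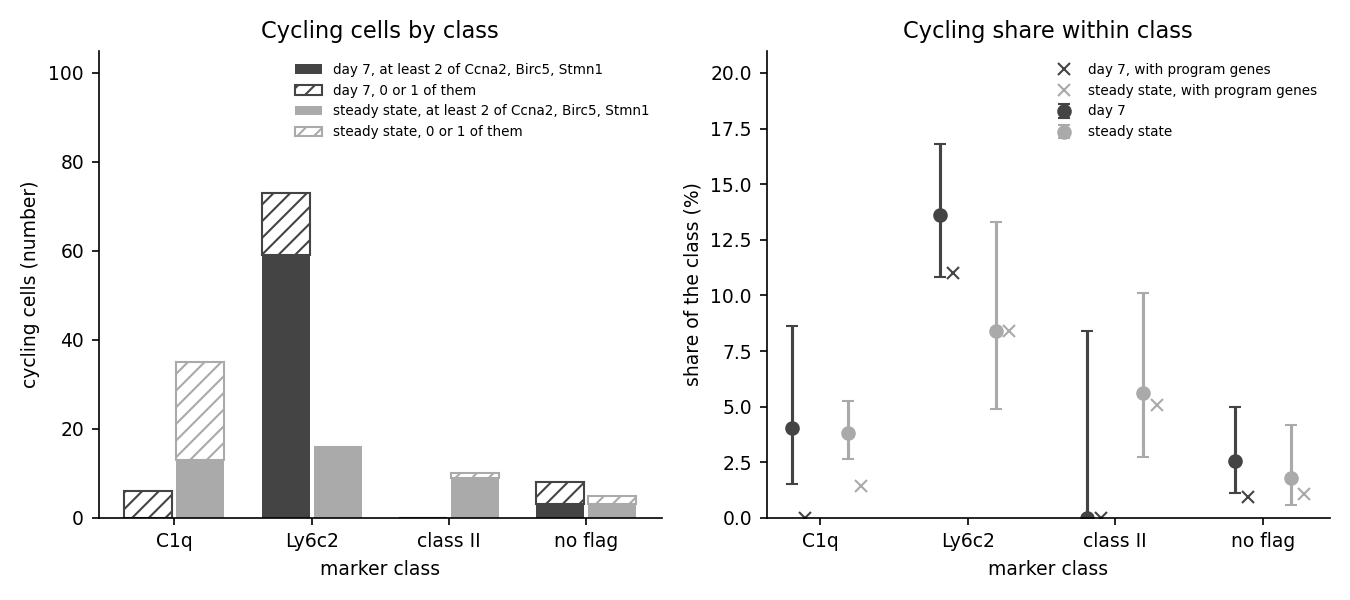
Left, number of cycling cells in each marker class at day 7 (dark) and steady state (light), with hatched parts for cells that carried UMIs of 0 or 1 of Ccna2, Birc5 and Stmn1. Right, cycling share of each class in percent, as points with exact 95% intervals of counting error and, as crosses, the share when at least 2 of those genes are required. The C1q points at 4.05% and 3.80% drop to 0 and 1.41% at the crosses, whereas the Ly6c2 points at 13.6% and 8.42% move to 11.0% and 8.42%.

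Other division genes accompanied the rule's genes in most Ly6c2 and class II cells and, at full depth, in 13 of the 41 C1q cells of both libraries. Ccna2, Birc5 and Stmn1 were not part of the rule, and a cell with UMIs of at least 2 of them is called a program cell here, a criterion chosen after the values had been seen. Program cells were 59 of the 73 Ly6c2 cycling cells at day 7 (80.8%) and all 16 at steady state. They were 9 of the 10 class II cells. Among C1q cells they were 0 of 6 at day 7 and 13 of 35 at steady state (37.1%, 21.5 to 55.1%). Counted over the whole class, program cells were 0 of 148 C1q cells at day 7 (up to 2.46% by its interval) and 1.41% at steady state. They were 11.0% and 8.42% of the Ly6c2 cells, and 0 and 5.06% of the class II cells. Outside the rule, 17 non-cycling cells at day 7 and 11 at steady state also had at least 2 of the 3 genes.

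The C1q cells short of the program held Mki67 almost alone. The 22 such cells at steady state carried 131 Mki67 UMIs and 1 Top2a UMI in sum, and the 6 at day 7 carried 33 and 1. The counts do not tell spliced from unspliced RNA, so whether these UMIs come from mature Mki67 mRNA is not known. Mki67 per cell had a lowest value of 3, a median of 4 and a highest value of 35 UMIs at steady state, and 3, 3 and 15 at day 7. The 13 C1q program cells of steady state had between 2 and 47 Mki67 UMIs and a median of 10 Top2a UMIs. Summed over 53 genes of G2 and M phase, the short cells had a median of 9.87 UMIs per 10000 at day 7 and 8.22 at steady state, close to the 7.79 and 7.51 of non-cycling C1q cells. The program cells had a median of 83.0 and ranged from 15.6 to 191 per 10000. Since the split used Ccna2, Birc5 and Stmn1, genes of the same program, these G2/M levels are a description only. Their median depth was 30370 RNA UMIs, against 13150.5 in the short cells, and the split at equal depth is given with the thinned counts below. In non-cycling C1q cells, 9.15% had a Mki67 UMI at day 7 and 10.5% at steady state, while 0.704% and 1.35% had a Top2a UMI. Non-cycling Ly6c2 cells, at similar depth in the steady-state library (medians of 9519 and 10226 RNA UMIs for Ly6c2 and C1q cells), had a Mki67 UMI in 1.15% and a Top2a UMI in 2.30% of cells, and at day 7 in 6.05% and 4.10%.

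**Figure D2:**
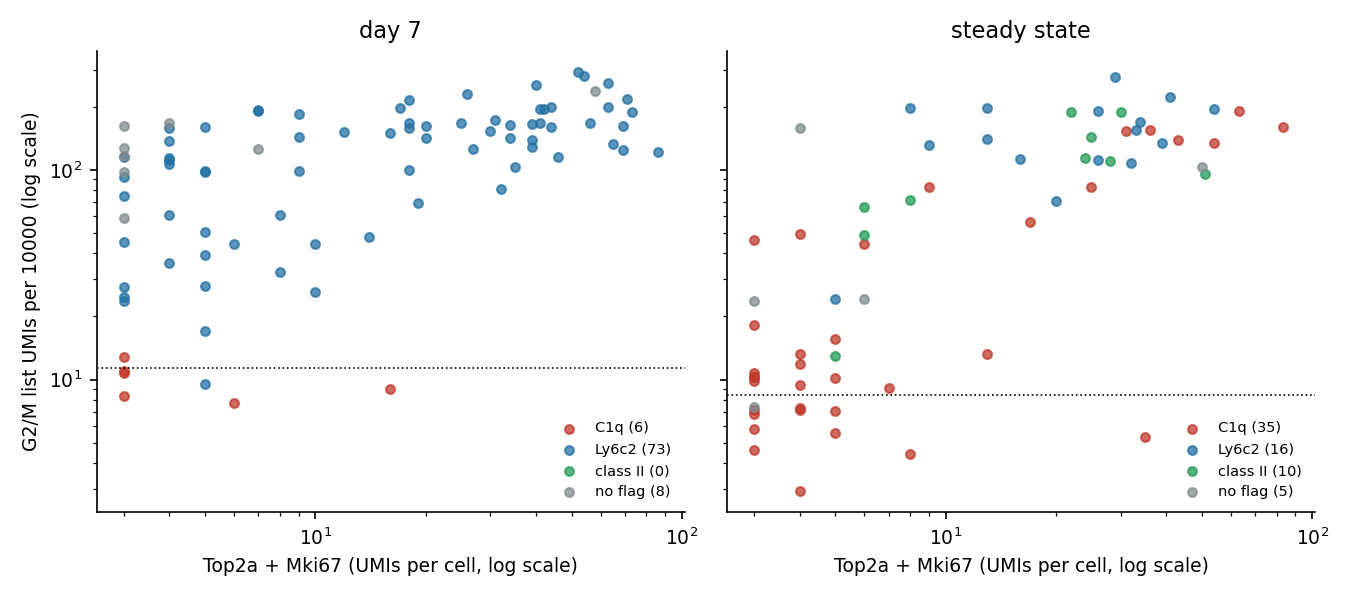
Each point is a cycling cell, with its Top2a and Mki67 UMIs in sum on the log x axis and its UMIs of the G2/M list per 10000 on the log y axis, day 7 left and steady state right, coloured by class. The dotted line is the median of all non-cycling cells (11.4 at day 7, 8.48 at steady state). All 6 C1q points at day 7 lie at or below 12.8, and at steady state the C1q points form a low group near the line and a high group among the Ly6c2 and class II points.

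Program and short C1q cells of steady state reached 2 Vsig4 UMIs in like shares, but at unlike depth, and their C1q sums differed. Vsig4, a complement receptor of lining and other resident macrophages, had at least 2 UMIs in 6 of 13 program cells and 10 of 22 short cells. The program cells were deeper (medians of 30370 and 13150.5 RNA UMIs). Their highest Vsig4 count was 30 UMIs, against 58 in short cells. Like shares of raw counts therefore do not mean like levels of Vsig4. Among all C1q cells with at least 2 Vsig4 UMIs, 4.23% were cycling at day 7 and 3.38% at steady state, against 3.90% and 4.24% of C1q cells under that count. The C1q sum ranged from 13 to 398 UMIs around a median of 73 in program cells, and from 17 to 288 around 160 in short cells. Aqp1, a water channel, had at least 2 UMIs in 33 of 35 cycling C1q cells at steady state (94.3%), against 81.4% of non-cycling ones. Lyve1, a hyaluronan receptor of interstitial macrophages, had at least 3 UMIs in 24 of the 35 (68.6%), against 82.3%. Class II sums of at least 10 UMIs were found in 9 of the 35 (25.7%), against 13.1%, and at day 7 in 0 of 6, against 7.04%. Scaled to depth, 3 of 6 measured class II genes lay above 0 and 3 below at steady state (median log2 ratio -0.05). The shares in this paragraph use raw counts, and cycling C1q cells of steady state were deeper (medians of 15111 and 10226 RNA UMIs). Only 1 cycling C1q cell, at day 7, carried Ly6c2, at 13 UMIs, and it was also of donor class with 46 CD45.1 counts.

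Cycling and non-cycling C1q cells of steady state were compared first over all 35 cells that met the rule. The ratios are of UMIs summed over 35 and 886 cells, so deep cells weigh more. Of 6450 genes at 20 or more CPM (UMIs scaled to a sum of 1000000) in at least one of the groups, 5.88% were at least 2-fold higher and 2.65% at least 2-fold lower in cycling cells, and the rule used this contrast, so nothing is read from the counts. S-phase genes were at least 2-fold higher for 29 of 30 measured (median log2 ratio 2.41), and G2/M genes for 47 of 48 (median 5.53, against 0.01 over all genes). Ube2c was at 393 CPM in cycling and 0.606 CPM in non-cycling C1q cells (log2 ratio 9.34, 8.20 to 10.80). Cdk1 was at 161 and 0.808 CPM (7.64, 6.61 to 8.89). Macrophage genes leaned the other way, with 4 of 17 of the C1q macrophage list at least 2-fold lower and 0 higher (median -0.84). Sparc, a matrix protein, was at 417 CPM in cycling and 1064 CPM in non-cycling cells (-1.35, -1.53 to -1.18), and Apoe, which carries lipids, was at 349 and 1071 CPM (-1.62, -1.81 to -1.43), with 44.5% of its UMIs in the cycling cells from 1 cell.

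Short C1q cells were set against the 886 non-cycling C1q cells in the same way, since they are most of the C1q cells that met the rule. Of 6318 genes, 3.07% were at least 2-fold higher and 3.66% at least 2-fold lower. None of 13 measured G2/M genes, of 53 listed, was at least 2-fold higher (median log2 ratio 0.27), and 4 of 13 S-phase genes were. Short cells were chosen for few UMIs of Ccna2, Birc5 and Stmn1, genes of the same program. Low levels of division genes in them thus follow in part from that choice and are a description only. Mki67 itself, which the rule used, was at 5.16, and Stmn1 at 2.46, with 77.8% of its UMIs in 1 cell. Of 11 inflammatory genes 4 were at least 2-fold higher and 2 at least 2-fold lower (median 0.82, against 0.02 over all genes). Cxcl1, a neutrophil attractant, was at 354 CPM in short and 102 CPM in non-cycling cells (log2 ratio 1.80), and 40.0% of its UMIs in short cells came from 1 cell. Cxcl2, its close relative, was at 4018 and 1416 CPM (1.504, 1.42 to 1.59). Nfkbia, the inhibitor that NF-kB itself induces, was at 2527 and 1137 CPM (1.15, 1.05 to 1.26). Icam1, an adhesion molecule outside the list, was at 512 and 167 CPM (1.62, 1.38 to 1.85). Ccl3 and Ccl4 went the other way, at log2 ratios of -1.68 (-3.00 to -0.63) and -1.60 (-2.55 to -0.79), but 100% and 83.3% of their UMIs in short cells came from 1 cell. H2-Aa was at 142 CPM in short and 492 CPM in non-cycling cells (-1.80, -2.26 to -1.37). The short cells were deeper than the non-cycling ones (13150.5 against 10226 median RNA UMIs), and the part of depth in these ratios was not tested.

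Ly6c2 cells at day 7 carried the division genes together with lower levels of genes of later monocyte stages. Of 6242 genes, 11.3% were at least 2-fold higher and 4.6% at least 2-fold lower in the 73 cycling than in the 463 non-cycling Ly6c2 cells. All 34 measured S-phase genes and all 52 measured G2/M genes were at least 2-fold higher, with medians of 3.92 and 5.14. Tyms and Rrm2, which supply deoxynucleotides, had log2 ratios of 4.79 and 6.26, and Mcm5, of the replicative helicase, had 4.14. The histone gene Hist1h2ap was at 1214 CPM in cycling and 8.94 CPM in non-cycling cells (7.09, 6.63 to 7.58), though reads of near-identical histone copies cannot be assigned with certainty. Foxm1, which drives G2/M transcription, had a log2 ratio of 6.26. Of the cyclin-dependent kinase inhibitors, Cdkn2c was at 3.29 and Cdkn1b at -0.23.

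Of 11 measured genes of Ly6C-low monocytes, 6 were at least 2-fold lower and 0 higher (median -1.25, against 0.06 over all genes). Adgre4, an adhesion receptor of Ly6C-low monocytes, was at 10.2 CPM in cycling and 76.8 CPM in non-cycling cells (-2.91, -3.93 to -2.05), although 72.7% of its UMIs in the cycling cells came from 1 cell. Cx3cr1, the fractalkine receptor, had a ratio of -1.59 (-1.93 to -1.27). Macrophage genes were at least 2-fold lower for 6 of 7 measured, among them the transcription factor Maf (7.42 CPM in cycling and 73.1 CPM in non-cycling cells; -3.30, -4.53 to -2.30). Csf1r, the receptor for macrophage colony-stimulating factor, was at -1.47 (-1.69 to -1.25). Interferon-stimulated genes were at least 2-fold lower for 4 of 9, such as Rsad2 at -2.16 (-3.32 to -1.20), and 0 of 9 were at least 2-fold higher. The 10 classical monocyte genes all lay within 2-fold (median -0.29), with Ly6c2 itself at 2008 CPM in cycling and 1479 CPM in non-cycling cells.

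RNA of Prtn3 and S100a8 was present at low level in these cells, below the limits that the rule set. Prtn3, proteinase 3 of granulocyte and monocyte precursors, had a UMI in 71.2% of cycling and 27.6% of non-cycling Ly6c2 cells at day 7, and in 50% and 21.3% at steady state. In non-cycling C1q cells, which should lack it, it had a UMI in 2.11% at day 7 and 0.451% at steady state (median depths 7513.5 and 10226 RNA UMIs). S100a8 had a UMI in 75.3% of cycling and 48.2% of non-cycling Ly6c2 cells at day 7, against 25.4% of C1q cells. At steady state it had a UMI in 50% and 10.3%, against 8.80% of C1q cells. Cycling Ly6c2 cells were deeper than non-cycling ones, with medians of 14527 and 9289 RNA UMIs at day 7 and 19125 and 9519 at steady state. The part of depth in these shares was not tested. Kit, the stem cell factor receptor, had no UMI in the 73 or the 16 cycling Ly6c2 cells, and Cd34 had one in 4.11% and 12.5% of them. Day 7 was also the library in which most cycling cells lay over the granule limits (106 of 193 at day 7, 54.9%, and 5 of 71 at steady state, 7.04%). The part of these cells' free RNA in the granule gene levels was not tested.

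The cycling Ly6c2 cells of both libraries were compared within the class. The 73 day 7 cells and the 16 steady-state cells each spanned a wide range of G2/M UMIs (9.51 to 294 per 10000 around a median of 137 at day 7, and 24.1 to 276 around 148 at steady state). S-phase UMIs had medians of 32.9 and 20.4 per 10000, with ranges of 3.23 to 98.1 and 5.14 to 79.1 that overlap. At least 3 UMIs of the mitotic genes Ccnb1, Cdc20 and Plk1 were found in 42.5% of the day 7 cells and 56.2% of the steady-state cells. Of 6218 genes, 8.2% were at least 2-fold higher and 4.37% at least 2-fold lower at day 7, and division genes mostly lay within 2-fold: 5 of 34 S-phase genes were higher, and 0 of 53 G2/M genes higher with 1 lower, Tubb4b, a tubulin, at -1.06. Median log2 ratios were 0.39 for S-phase and -0.16 for G2/M genes, against 0.06 over all genes.

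Classical monocyte genes were at least 2-fold higher at day 7 for 2 of 10 measured and lower for 0, and Ly6C-low monocyte genes higher for 0 and lower for 1 of 9. S100a9, a calgranulin, was at 315 CPM at day 7 and 19.6 CPM at steady state (4.01, 2.87 to 5.46). The part of free RNA in this ratio was not tested. Camp, a neutrophil granule gene, was at 32.2 CPM at day 7 and 2.63 CPM at steady state in non-cycling C1q cells. Vcan, a proteoglycan of classical monocytes, was at 182 and 16.3 CPM (3.47, 2.23 to 5.11). Thbs1, thrombospondin, was at 2100 and 987 CPM (1.09, 0.92 to 1.27). The 16 steady-state cells held 6 S100a9 and 5 Vcan UMIs, and 66.7% and 60.0% of these came from 1 cell. Lower at day 7 were Klf2, a quiescence factor (131 CPM at day 7 and 608 CPM at steady state; -2.22, -2.54 to -1.89), Jun, of AP-1 (225 and 759 CPM; -1.75, -2.02 to -1.49), and Apoe (147 and 572 CPM; -1.97, -2.29 to -1.65), with 46.3% of its steady-state UMIs in 1 cell. Immediate early genes were at least 2-fold lower for 5 of 15 measured and higher for 0, and genes of type 2 dendritic cells were lower for 5 of 7 and higher for 1. Mgl2, a lectin of such dendritic cells, had no UMI at day 7, which puts it at least 23.5-fold lower than the 65.4 CPM of steady state, where all 20 of its UMIs lay in 1 cell. Immediate early genes also respond to tissue dissociation, and the part of sample handling in them was not tested.

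**Figure D3:**
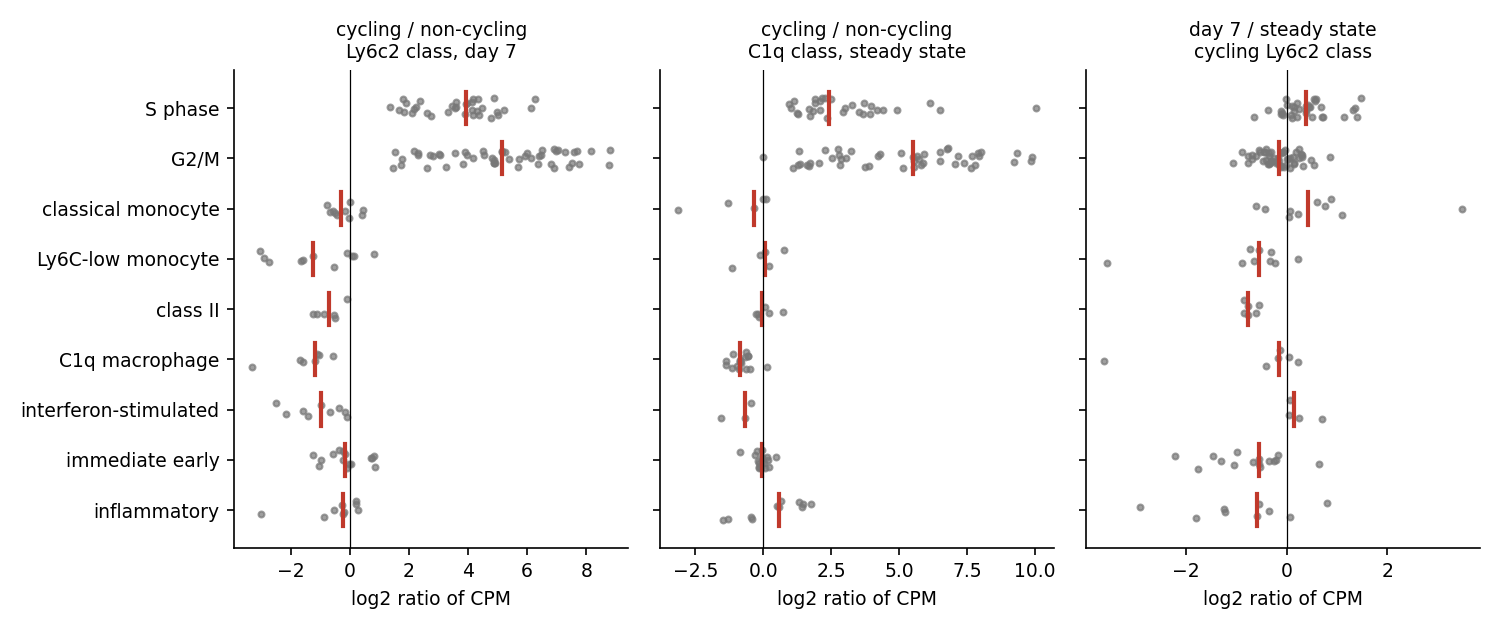
Log2 ratios of CPM of single genes (grey points) and their median (red bar) for 9 gene lists, in the cycling over non-cycling Ly6c2 cells of day 7, the cycling over non-cycling C1q cells of steady state, and the day 7 over steady-state cycling Ly6c2 cells. Division genes have medians of 3.92 and 5.14 in the left panel and 0.39 and -0.16 in the right panel, and genes without a UMI in 1 group are placed at the ratio that 3 counts would give.

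Over all cycling cells, without regard to class, the libraries differed by 2-fold or more in most genes of several lineage lists. Of 6610 genes, 9.5% were at least 2-fold higher and 9.97% at least 2-fold lower at day 7. Classical monocyte genes were at least 2-fold higher for 8 of 10 and C1q macrophage genes at least 2-fold lower for 13 of 15, and neutrophil genes higher for 8 of 9 and lower for 1. S-phase genes were higher for 7 of 34 and lower for 1, and G2/M genes higher for 3 of 51 and lower for 0. Class II genes were at least 2-fold lower for 5 of 6, with H2-Eb1 at 63.1 CPM at day 7 and 736 CPM at steady state (-3.54, -3.91 to -3.20). These ratios include the different make-up of the cycling cells by class given above. The part of free RNA in the neutrophil genes was not tested.

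Antibody counts were compared between cycling and non-cycling cells of the same class. Cycling Ly6c2 cells at day 7 had a median of 75 Ly6C counts, against 53 in non-cycling ones, and at steady state 96.5 against 53.5. CD43, a sialoprotein that is high on Ly6C-low monocytes and on marrow precursors, had medians of 201 in cycling and 103 in non-cycling cells at day 7, and of 345 and 128.5 at steady state. At steady state the lower quartile of CD43 in cycling cells, 276.5, lay above the upper quartile of 199 in non-cycling cells, and at day 7 the quartile ranges overlapped. CD11b had lower medians in the cycling cells, at 76 against 129 at day 7 and 269 against 321 at steady state. As shares of all antibody counts, CD43 made up 3347 per 10000 in cycling and 2150 in non-cycling cells at day 7, and Ly6C 1410 and 1140. CD11b made up 1827 and 2774 per 10000. The 10 cycling class II cells of steady state had a median of 193.5 I-A-I-E counts, against 129 in non-cycling class II cells. Their median of CD11c was 14 counts against 1. They were also deeper (medians of 20982.5 and 9818.5 RNA UMIs), and the part of depth in these antibody counts was not tested. The labels give the sort gate as negative for Ly6C and MHCII, and these counts were measured in the sorted cells all the same.

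C1q cells that met the rule at steady state carried more counts of several surface proteins and fewer of resident receptors. Of these 35 cells 22 were short of the program, with G2/M levels close to those of non-cycling C1q cells. The antibody counts were not split by program, so they need not describe dividing cells. CD11b had medians of 702 in cycling and 418 in non-cycling C1q cells, and CD86, a co-stimulatory ligand, of 83 and 50. CD163, a haemoglobin scavenger receptor, had medians of 41 and 82, and Tim4, which binds phosphatidylserine, of 36 and 51.5. As shares of all antibody counts CD11b hardly differed (3560 and 3458 per 10000), while CD163 stayed lower (1334 and 1829). Cycling C1q cells held more antibody counts in all (a median total of 1707, against 1343.5 in non-cycling C1q cells), and the quartile ranges of cycling and non-cycling cells overlap for CD11b, CD86 and CD43 in this class.

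**Figure D4:**
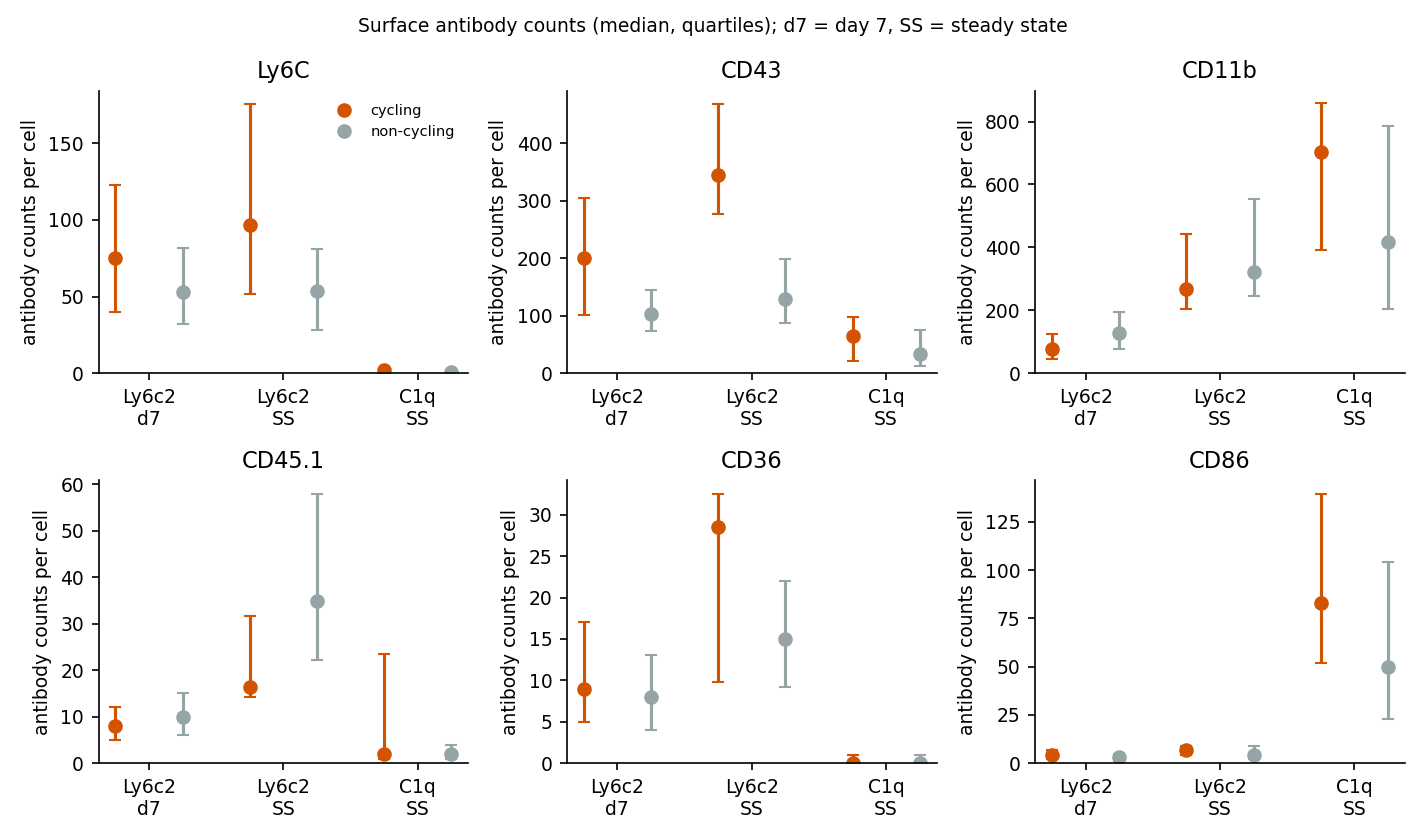
Median antibody counts per cell with quartiles for 6 surface proteins, cycling cells (orange) left of non-cycling cells (grey), in Ly6c2 cells of day 7 and of steady state and in C1q cells of steady state. CD43 medians in Ly6c2 cells are 201 and 103 at day 7 and 345 and 128.5 at steady state, and the C1q cells stand apart by CD11b at 702 and 418. Of the 35 cycling C1q cells shown, 22 were short of the program.

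The host share of cycling cells lay near that of the non-cycling cells in the Ly6c2 and C1q classes. Host or donor class was assigned from the log2 ratio of the CD45.2 and CD45.1 tags by a mixture of 2 normal distributions, at a posterior of 0.95 and with at least 10 counts of both tags together. Of the assigned cycling cells, 6 of 48 were host class at day 7 (12.5%, 4.73 to 25.2%) and 29 of 60 at steady state (48.3%, 35.2 to 61.6%). Another 39 cycling cells at day 7 and 6 at steady state could not be assigned. Median tag counts of all cycling cells were 7 for CD45.1 and 2 for CD45.2 at day 7, and 12 and 11.5 at steady state.

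Assigned Ly6c2 cycling cells were of donor class with 2 exceptions. At day 7, 2 of 41 assigned cells were host class (4.88%, with 32 more unassigned), against 13 of 300 non-cycling Ly6c2 cells (4.33%). At steady state 0 of 15 were, which allows up to 20% by 3 counts of the total, against 3 of 165 (1.82%). Among donor-class Ly6c2 cells, 39 of 326 were cycling at day 7 (11.96%, 8.65 to 15.99%), against 15 of 177 at steady state (8.47%, 4.82 to 13.6%). Of the class II cycling cells of steady state, 2 of 10 were host class, against 5 of 155 non-cycling ones (3.23%). Of those without a flag, 2 of 3 assigned cells were, against 40 of 236 (16.9%).

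C1q cycling cells were mostly of host class. At steady state 25 of 32 assigned cells were host class (78.1%, 60.0 to 90.7%), against 672 of 815 non-cycling C1q cells (82.5%). At day 7 the counts were 4 of 5, against 87 of 97 (89.7%). Host-class C1q cells were cycling in 25 of 697 cases at steady state (3.59%, 2.33 to 5.25%) and donor-class ones in 7 of 150 (4.67%, 1.90 to 9.38%), so no difference by origin was detectable. With the program genes required, 9 host-class, 2 donor-class and 2 unassigned C1q cells remained at steady state, and none at day 7. The host share of all cycling cells at steady state was then 12 of 37 (32.4%), and 16 of the 22 short C1q cells were of host class.

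**Figure D5:**
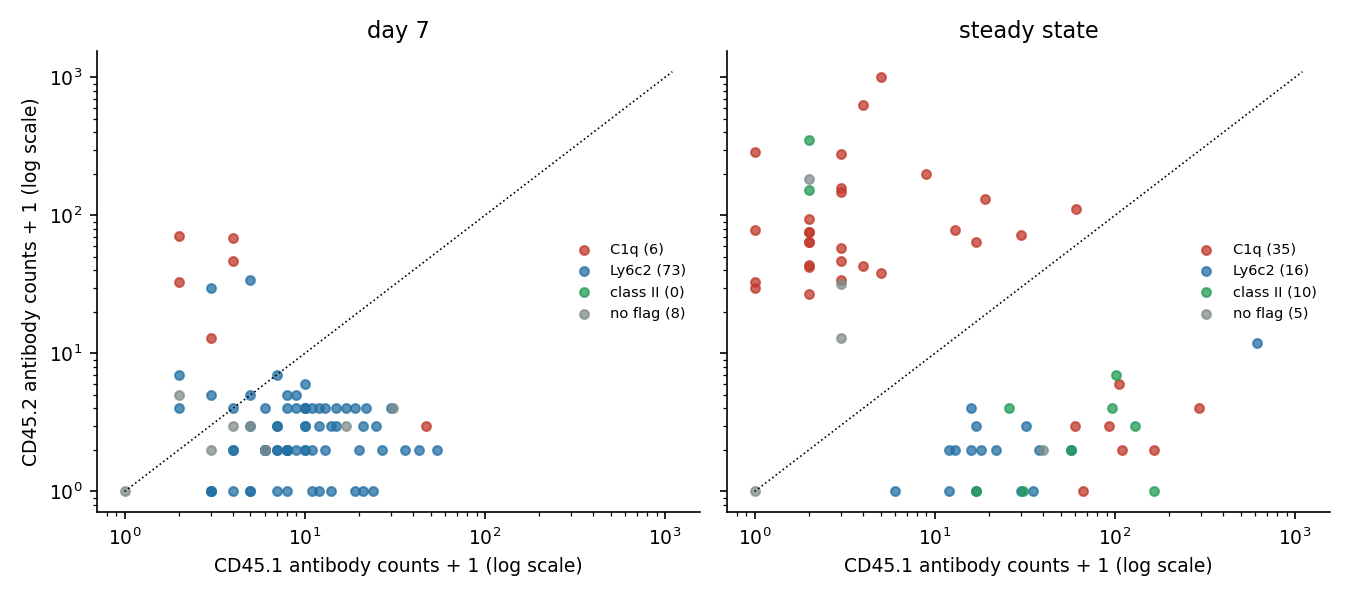
CD45.1 counts (x axis) and CD45.2 counts (y axis), both plus 1 and on log scales, of each cycling cell at day 7 (left) and steady state (right), coloured by class, with equal counts on the dotted line. Most Ly6c2 cells lie on the CD45.1 side (65 of 73 at day 7 and 16 of 16 at steady state had more CD45.1 counts) and 28 of 35 steady-state C1q cells had more CD45.2 counts, and at day 7 many Ly6c2 cells lie near the origin of the axes.

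Host-class and donor-class cycling cells of steady state differed by lineage, and G2/M genes leaned lower in the host-class cells. Of 6614 genes, 14.0% were at least 2-fold higher and 8.78% at least 2-fold lower in the 29 host-class than in the 31 donor-class cells, and the median over all genes was 0.11, against which the values below are to be read. C1q macrophage genes were at least 2-fold higher for 16 of 17 and scavenger and efferocytosis genes for 10 of 13. Vsig4 was at 622 CPM in host-class and 6.06 CPM in donor-class cells (6.68, 5.31 to 8.57), and Gas6, which bridges dying cells to phagocytes, at 281 and 7.58 CPM (5.21, 3.96 to 6.85). Ly6c2 had no UMI in the host-class cells, which puts it at least 103-fold below the 532 CPM of donor-class cells. Class II genes were lower for 6 of 6 and type 2 dendritic cell genes for 8 of 8. G2/M genes were at least 2-fold lower for 6 of 50 and higher for 1 (median -0.41), and S-phase genes lower for 3 of 33 and higher for 1. Of the G2/M genes 41 lay below 0 and 9 above, and of the S-phase genes 18 below and 15 above. The groups also differed in program cells, since 17 of the 29 host-class and 6 of the 31 donor-class cells were short of the program.

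The remaining cycling cells were few and mixed. Of the 8 without a flag at day 7, 7 had 658 to 1800 RNA UMIs, and S100a9, Camp and Ngp, of neutrophil granules, summed to at least 10 UMIs in 3 of the 8. The G2/M UMIs of the 8 were 58.8 to 237 per 10000, above the 11.4 median of non-cycling cells without a flag. Only 3 of them passed the program criterion. Among these was the deepest cell, with 12672 RNA UMIs and the highest G2/M value. Camp, an antimicrobial peptide of neutrophil granules, stood at 8783 CPM in these 8 cells, against 403 CPM in the 305 non-cycling cells without a flag, but 4 of the 8 had any Camp UMI and 53.5% of the UMIs came from 1 cell. Ctsk, cathepsin K of osteoclasts, had 493 UMIs in 1 steady-state cell without a flag, of donor class, and 112 and 29 UMIs in 2 host-class C1q cells. A host-class class II cell held all the Ctsk UMIs of its class, which stood at 1098 CPM. These 4 cells had 30370 to 46936 RNA UMIs, above the upper quartile of 25341 of the cycling cells there, and all 4 were program cells. No non-cycling class II cell had 3 or more Ctsk UMIs, against 1 of the 10 cycling ones. In the steady-state C1q class 77 of 886 non-cycling cells had that many (8.69%), against 2 of 35 cycling ones (5.71%). Of steady-state cells without a flag 11 of 272 non-cycling ones did, against 1 of 5 cycling ones.

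Depth was made equal by thinning every cell to 5000 RNA UMIs, which left out 290 cells at day 7 and 319 at steady state as shallower. With the granule limits kept on the full counts, 55 of 767 cells were then cycling at day 7 (7.17%, 5.45 to 9.23%), against 39 of 1312 at steady state (2.97%, 2.12 to 4.04%). With the granule limits applied to the thinned counts, 22 further cells entered at day 7 and 1 at steady state, and the shares were 71 of 789 at day 7 and 39 of 1313 at steady state. By the limits on full counts, Ly6c2 cells were cycling in 50 of 415 cases at day 7 (12.05%, 9.08 to 15.6%) and 9.59% at steady state. C1q cells met the rule in 2 of 109 cases at day 7 (1.83%) and 12 of 762 at steady state (1.57%, 0.816 to 2.73%), below the 4.05% and 3.80% at full depth. Program cells at this depth were 43 of 50 cycling Ly6c2 cells at day 7 and 13 of 14 at steady state. They were 0 of 2 cycling C1q cells at day 7 and 6 of 12 at steady state (50%, 21.1 to 78.9%), an interval that also holds the 37.1% of full depth.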

How the data were processed

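Raw counts per gene and antibody in 2 libraries were deposited by the authors as 10x matrices (32285 genes and 92 antibodies). Per the submitters' processing notes, Cell Ranger 6.1.2, Seurat 4.4.0 and build mm10 were used, with no role or order given. No per-cell annotation was used here. From the deposited counts, cells were filtered and classed by the UMI limits in the text. UMIs were summed per group and given as CPM, and a gene was compared where one of the groups reached 20 CPM. A 2-fold ratio is the limit for naming, since 1 library per group allows no test. A gene without UMIs in 1 group was set to 3 counts. Origin came from a Gaussian mixture (scikit-learn 1.9.0), intervals from scipy 1.17.1, and doublets from Scrublet in scanpy 1.11.5, which were marked and kept. The division program was defined after the data had been seen, as were the Ly6c2 comparison between libraries and the comparison of short C1q cells. The members and gene lists were chosen with earlier results of these data known. Named genes are list members, plus the 12 highest and 12 lowest per comparison, ranked by the end of the interval closer to 0, with a UMI in 25% or more of the cells of the higher group, leaving out ribosomal, mitochondrial, Gm and Rik genes. On simulated counts (6241 genes, day 7 over steady state), 100 of 100 genes raised 4-fold and 100 of 100 lowered 4-fold passed the 2-fold limit, as did 58 of 6041 unchanged genes. The simulated cells of a library shared 1 profile, without differences between cells or classes, and changed genes were drawn from those at 50 CPM or more. These rates therefore cover counting error only and need not hold for the comparisons in the text. Alternatives were other rule, class, mitochondrial and origin limits, thinning, doublet removal, equal weight per cell, median centring and another CPM minimum.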

Additional observations from a re-analysis of the deposited data

Results flagged for a closer look

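Cell division RNA was also found in barcodes that failed the cell filters and enter no comparison. At steady state, 4 of 275 such barcodes had at least 3 Top2a and Mki67 UMIs under both granule limits (1.45%), and at day 7, 0 of 67 did. None of the 4 was in the C1q or Ly6c2 class. These values lie outside the data on which the shares are based and were not examined further.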

How the results depend on the processing

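No paired analysis was possible because each group is 1 library and no result comes from a test. Of the alternative values for shares and gene counts, 248 stayed within the counting interval or within 1.5 times the count and 49 did not; for single genes the numbers were 1172 and 218, with 1 more reversed. Values below are shares in percent, and gene counts at least 2-fold higher and lower. The cause of each difference was not tested.

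With a limit of 2 Top2a and Mki67 UMIs, the steady-state cycling share was 5.95 and that of steady-state C1q cells 6.51, with 228 and 101 genes for cycling over non-cycling C1q cells and 72 and 93 for short over non-cycling ones. With a limit of 5, the share was 5.96 at day 7 and 2.82 at steady state, 1.35 and 1.95 for C1q cells, and 0.639 for day 7 cells without a flag. The program share of steady-state C1q cycling cells was then 55.6 and the host share of steady-state cycling cells 34.9, with 573 and 465 genes for cycling and 588 and 639 for short C1q cells. Thinning gave 2.97 for steady-state cells under both granule limits and 1.57 for C1q cells. Those limits were applied after it or, as added after seeing the data, before it.

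With a minimum of 50 CPM fewer genes were compared: 323 and 309 differed for day 7 over steady state in all cycling cells, 137 and 92 in cycling Ly6c2 cells, 174 and 67 for cycling and 62 and 44 for short over non-cycling C1q cells, 341 and 141 for cycling over non-cycling Ly6c2 cells, and 394 and 281 for host over donor class.

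Requiring the program genes gave cycling shares of 5.87 at day 7 and 2.51 at steady state, 0 and 1.41 for C1q cells, and 0.958 for day 7 cells without a flag. The host share at steady state was 32.4, and 800 and 706 genes differed in C1q cells. Tcim, for host over donor class, reversed to -0.87, from a ratio set by the absence of UMIs in donor-class cells. Requiring 30 G2/M UMIs per 10000 gave 2.33 at steady state, 0 and 1.30 for C1q cells at day 7 and steady state, a program share of 91.7 in the steady-state C1q cells and a host share of 32.4, with 797 and 828 genes in C1q cells and 968 lower for host over donor class. Both criteria were chosen after seeing the data.

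The precision is limited by 1 library per group, by 6 C1q cells at day 7 and 16 Ly6c2 cells at steady state, and by low CD45 tag counts at day 7.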
